A study of Mus musculus with 12 samples.

Results

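Islets of mice that lack BACE2 were compared with islets of wild type mice, on the 3 BACE2-KO and the 3 WT arrays of a series of 12. BACE2 is an aspartyl protease of the membrane that is prominent in beta cells, a relative of BACE1, which cuts the amyloid precursor protein. It sheds the outer part of membrane proteins, among them collectrin (TMEM27), a beta cell protein tied to growth and secretion, and an expression array reads RNA, not these cleavage products. The arrays were chosen by their titles. BACE2-KO and WT mice were 12 weeks old, were fed standard chow, and carried no transgene. The other 6 arrays, 3 of hIAPP/BACE2-KO and 3 of hIAPP islets, came from mice of that age with a transgene for human islet amyloid polypeptide, the peptide that forms islet amyloid, with and without BACE2. The labels name the strain B6;129P2-Bace2tm1Bdes/J for all 4 groups, WT included. They give neither the promoter of the transgene nor the breeding scheme, so an effect of BACE2 loss cannot be told apart from genetic background bred along with it. They do not say whether islets of several mice went into an array, so the p-values here speak of arrays, not of animals.

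Levels are on a log2 scale, where a difference of 1 is a doubling of signal. Array medians lay between 4.22 and 4.35 and the highest values between 13.93 and 14.03, so all arrays shared a scale. Of 17097 genes with a probe set of a single symbol, 12825 had a mean level above 3.43, the 25th percentile, and were tested. A gene was called at an adjusted p under 0.05. The median difference over all genes tested was 0.01, and 52.6% of genes had a difference above 0 and 47.1% one below 0. All arrays had Eif2s3y, a gene of the Y chromosome, between 8.08 and 8.68, and Xist, the transcript of the inactive X, between 3.23 and 3.91, so no array stood apart by sex.

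Islet hormone genes were near the top of the scale in both groups. Ins2, an insulin gene, lay between 13.97 and 14 in BACE2-KO and between 13.97 and 14.03 in WT arrays, where differences are not resolved. Gcg, the glucagon gene of alpha cells, had 13.12, 13.10 and 13.20 in BACE2-KO and 13.05, 13.13 and 13.07 in WT arrays. Sst, the somatostatin gene of delta cells, had 12.14, 12.87 and 12.80 against 12.68, 12.64 and 12.59 in WT arrays. Ppy and Pyy, the genes of pancreatic polypeptide and peptide YY, differed by -0.08 (SE 0.09) and -0.06 (SE 0.07). The groups overlapped in each of these 5 hormones, and none passed the test. Exocrine RNA was present in every array. Ctrb1, the acinar gene of chymotrypsinogen B, had 12.87, 12.52 and 12.14 in BACE2-KO and 13.04, 12.77 and 10.95 in WT arrays.

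Bace2 itself was read on 3 probe sets. The brightest had 10.85, 11.00 and 10.97 in BACE2-KO and 11.18, 10.91 and 11.18 in WT arrays, a difference of -0.15 (SE 0.10, adjusted p = 0.941). Another had 7.82, 8.0 and 7.96 in BACE2-KO and 8.23, 7.95 and 8.14 in WT arrays, and the third had 7.77, 7.76 and 7.79 against 7.89, 7.44 and 7.88. The groups overlapped on all 3. Where these probes lie relative to the deleted part of the gene is not given in the sources used here, so the genotype rests on the labels alone.

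BACE2-KO islets differed from WT islets in few genes. The test called 16 genes (0.125% of those tested), 9 higher (0.0702%) and 7 lower (0.0546%), while 806 (6.28%) had an unadjusted p under 0.05. Among them, Ghrl and Pnoc, the ghrelin and nociceptin genes, fell, and Timmdc1, Ppp1r3b and Star, single genes of complex I assembly, glycogen targeting and mitochondrial cholesterol import, rose. The 3 BACE2-KO arrays lay entirely above or below the 3 WT arrays in all 16, as they did in 12.9% of all genes tested. The median size of the 16 differences was 1.03 log2 units. A difference of at least 1 was found for 61 genes, of which 10 were called.

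**Figure D1:**
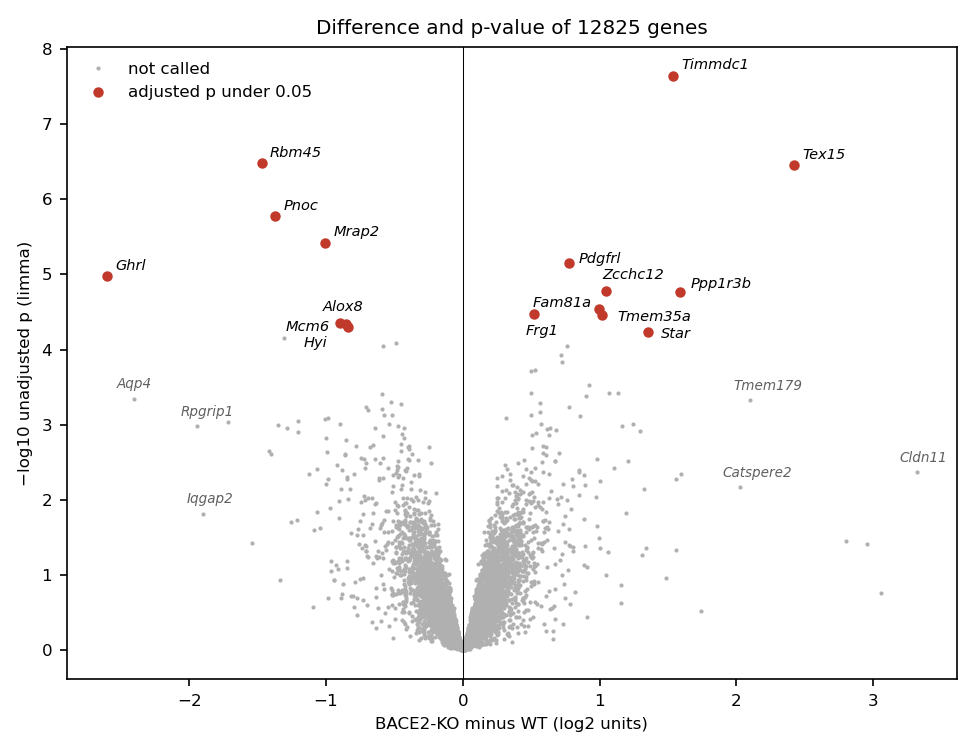
Difference between BACE2-KO and WT islets (horizontal axis, log2 units) against −log10 of the unadjusted limma p (vertical axis) for 12825 genes, with the 16 called genes in red. Timmdc1 stands highest, and Cldn11, Aqp4, Tmem179, Rpgrip1, Catspere2 and Iqgap2 lie far out at the sides without being called.

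**Figure D2:**
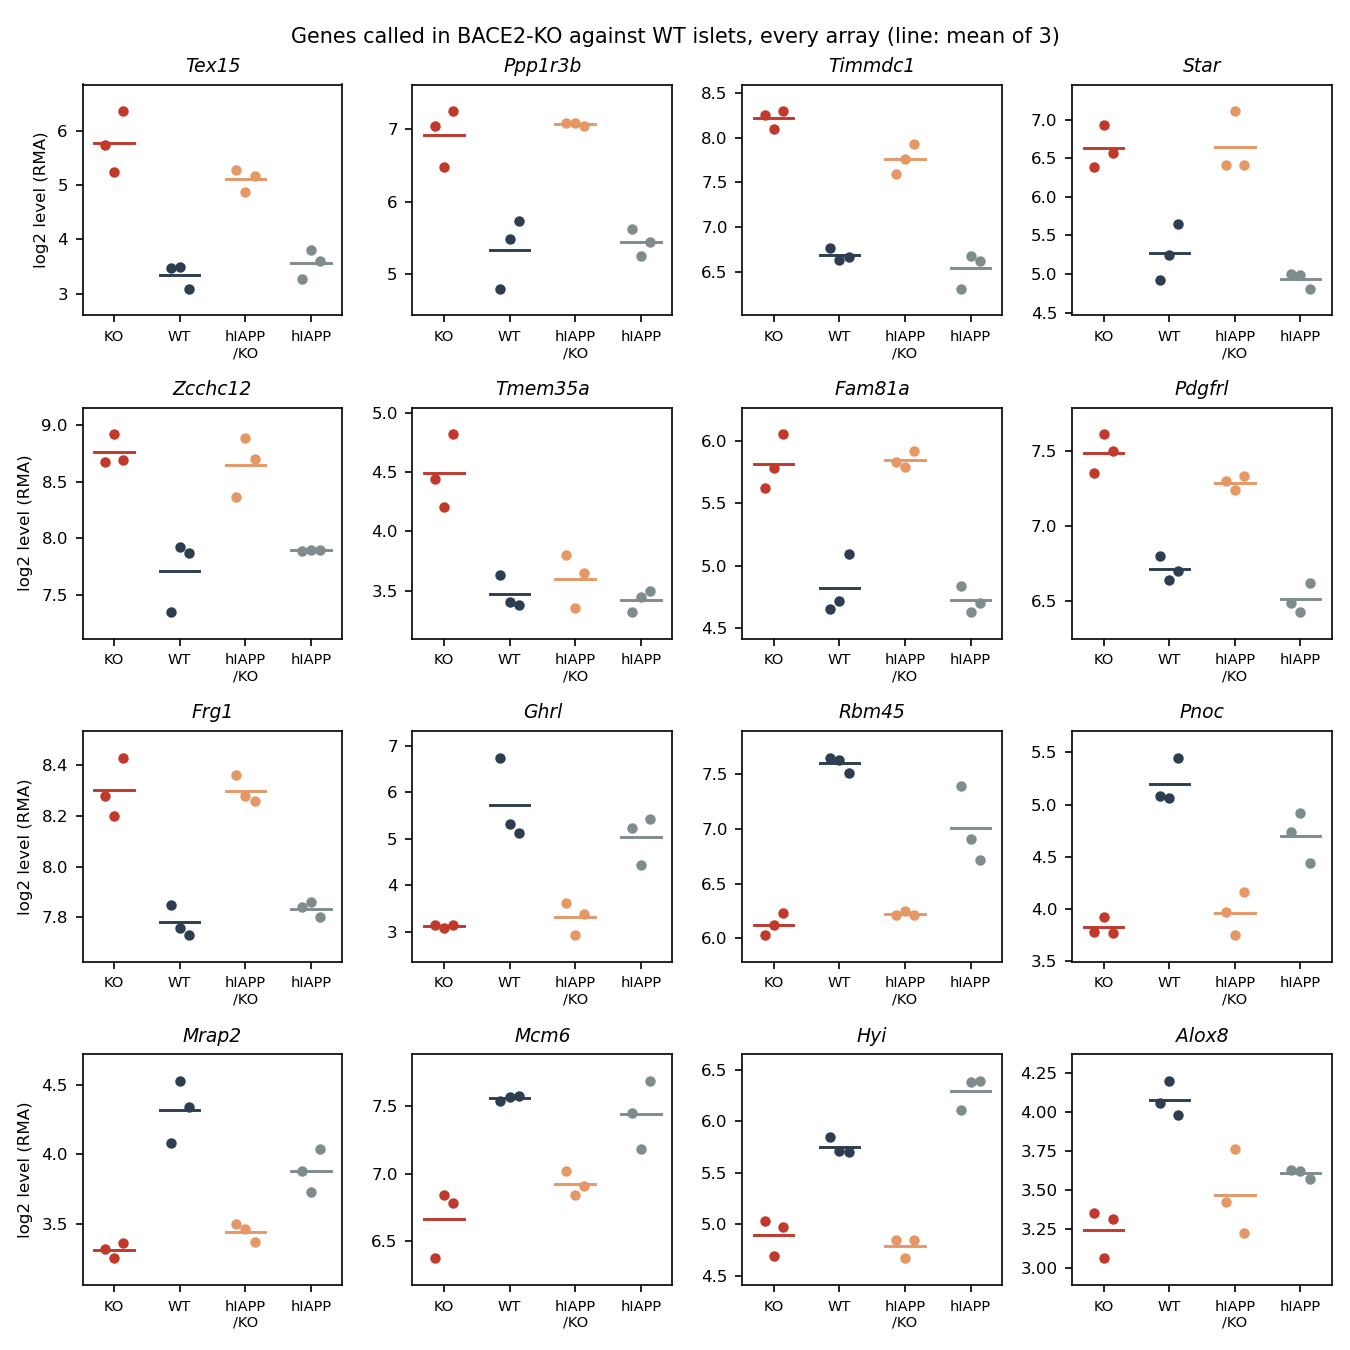
Log2 level of each called gene in every array of the 4 groups (points) with the mean of 3 arrays (line), on an axis of its own for each gene. The BACE2-KO points (KO) lie clear of the WT points in all 16 panels, and the hIAPP/BACE2-KO points (hIAPP/KO) lie clear of the hIAPP points in 14, the exceptions being Tmem35a and Alox8.

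Peptide hormone genes held the largest fall. Ghrl encodes ghrelin, the hunger hormone, which in islets is the product of the rare epsilon cells. Ghrl had 3.14, 3.09 and 3.14 in BACE2-KO and 6.74, 5.31 and 5.12 in WT arrays, a difference of -2.60 (SE 0.37, adjusted p = 0.0193). The BACE2-KO values lay below 3.43, the filter level, which leaves only a direction and no firm size, and WT replicate 1 stood well above the other WT arrays. The difference was -2.09 without that array. The call was lost without BACE2-KO replicate 1, 2 or 3 (adjusted p = 0.0751, 0.0796 and 0.0646), although the difference stayed between -2.61 and -2.58. In whole islets, fewer cells of a type and less RNA per cell cannot be told apart. Other genes on the list of pancreatic polypeptide and epsilon cells did not fall with Ghrl: of its 8 tested members 3 were higher and 5 lower, with a median of -0.07, and Ghrl was its only call.

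Pnoc encodes the precursor of nociceptin, an opioid-like neuropeptide. Pnoc had 3.78, 3.92 and 3.77 in BACE2-KO and 5.08, 5.06 and 5.45 in WT arrays, a difference of -1.37 (SE 0.16, adjusted p = 0.00536). All BACE2-KO arrays lay below all WT arrays, and Pnoc was called in each of the 12 fits that left out 1 array, with differences from -1.44 to -1.25. Mrap2 encodes an accessory protein that binds the melanocortin and ghrelin receptors and tunes their signalling. Mrap2 had 3.32, 3.25 and 3.36 in BACE2-KO and 4.08, 4.53 and 4.34 in WT arrays, a difference of -1.01 (SE 0.13, adjusted p = 0.00969). Its BACE2-KO values lie under the filter level too, and its call was lost without BACE2-KO replicate 1 (adjusted p = 0.0562) or 2 (adjusted p = 0.0646). The ghrelin receptor gene Ghsr differed by -0.07 (SE 0.27) and the nociceptin receptor gene Oprl1 by 0.09 (SE 0.12), both at low levels.

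Among 24 tested genes of islet hormones and neuropeptides, 14 were higher and 10 lower, with a median of 0.05, and Ghrl and Pnoc were the 2 called. The unadjusted p was under 0.05 in 2 higher members, against 3.2% of all genes, and in 2 lower ones, against 3.08%. The higher members were Tac1, the substance P precursor gene, and Vgf, a granule protein gene. Tac1 had 5.33, 5.86 and 5.51 in BACE2-KO and 4.65, 4.89 and 4.83 in WT arrays (0.78, SE 0.30, adjusted p = 0.705). Vgf had 9.03, 9.43 and 9.16 against 7.27, 8.34 and 9.33 in WT arrays (0.89, SE 0.39, adjusted p = 0.76), so that WT replicate 3 lay inside the BACE2-KO range.

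The gene with the smallest p was Timmdc1, which encodes an assembly factor of the membrane arm of respiratory complex I. Timmdc1 had 8.26, 8.10 and 8.30 in BACE2-KO and 6.77, 6.63 and 6.66 in WT arrays, a 2.89-fold rise (1.53 log2 units, SE 0.12, adjusted p = 0.000292). It was called in every fit without 1 array, with a difference from 1.49 to 1.59. No other assembly factor moved with it. Of 15 tested, 9 were higher and 6 lower, with a median of 0.02, and the next in size was Tmem126b at 0.31 (SE 0.25, adjusted p = 0.974). The 32 tested subunits of complex I had a median of -0.03, with 12 higher and 20 lower and none called, and the 32 tested subunits of the other respiratory complexes a median of -0.03 as well.

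Ppp1r3b encodes the subunit that brings protein phosphatase 1 to glycogen, where it favours glycogen synthesis. Ppp1r3b had 7.05, 6.48 and 7.25 in BACE2-KO and 4.80, 5.49 and 5.73 in WT arrays, a 3.0-fold rise (1.59 log2 units, SE 0.24, adjusted p = 0.0244). The gap between the lowest BACE2-KO and the highest WT array was smaller than the spread within either group. The call was lost without WT replicate 1 (1.32, adjusted p = 0.0708), WT replicate 2 (adjusted p = 0.0916), BACE2-KO replicate 1 (adjusted p = 0.0981) or BACE2-KO replicate 3 (adjusted p = 0.0883). Ppp1r3b was the only call among 21 tested genes of glycogen metabolism, of which 14 were higher and 7 lower, with a median of 0.05. Pygb, a glycogen phosphorylase gene, had 7.09, 6.85 and 6.83 against 6.28, 6.27 and 6.40 in WT arrays (0.61, SE 0.16, adjusted p = 0.344). Ppp1r3e, another glycogen-targeting subunit gene, had the opposite sign, with 4.88, 5.34 and 6.06 against 6.32, 6.52 and 6.45 in WT arrays (-1.0, SE 0.31, adjusted p = 0.47). Neither passed the test.

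Star encodes the protein that moves cholesterol into mitochondria, the first step of steroid synthesis. Star had 6.38, 6.93 and 6.57 in BACE2-KO and 4.92, 5.24 and 5.65 in WT arrays, a difference of 1.36 (SE 0.23, adjusted p = 0.0462). Its other probe sets differed by 1.43 (SE 0.30) and 0.72 (SE 0.22), with no overlap between the groups on either. The Star call had the highest adjusted p of the 16. It held in the fits without WT replicate 3 or without hIAPP/BACE2-KO replicate 2, and without any of the other 10 arrays the adjusted p lay between 0.0554 and 0.264. No other gene of steroid and mitochondrial cholesterol transport was called, and the 16 tested had a median of 0.01. Abcg1, a cholesterol exporter gene, had 9.72, 9.67 and 9.65 against 9.98, 9.83 and 9.93 in WT arrays (-0.23, SE 0.06, adjusted p = 0.373).

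A pair of enzyme genes fell. Hyi encodes hydroxypyruvate isomerase. Hyi had 5.03, 4.69 and 4.97 in BACE2-KO and 5.85, 5.71 and 5.70 in WT arrays (-0.86, SE 0.14, adjusted p = 0.0416). Alox8 encodes an arachidonate lipoxygenase, and had 3.35, 3.06 and 3.31 in BACE2-KO and 4.06, 4.20 and 3.98 in WT arrays (-0.84, SE 0.14, adjusted p = 0.0431). The BACE2-KO values of Alox8 lie under the filter level. Both calls were narrow: Hyi was called without hIAPP replicate 1 and in none of the other 11 such fits (adjusted p from 0.0554 to 0.257), and Alox8 in those without hIAPP/BACE2-KO replicate 2 or 3 (otherwise from 0.0608 to 0.201). The 12 tested genes of lipoxygenases and prostaglandin synthesis had a median of -0.01, with 6 higher and 6 lower.

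Genes of RNA handling, replication and transcription were called in both directions. Rbm45 encodes an RNA-binding protein. Rbm45 had 6.03, 6.12 and 6.23 in BACE2-KO and 7.65, 7.63 and 7.51 in WT arrays (-1.47, SE 0.15, adjusted p = 0.00151) and the groups were far apart relative to the spread within each. It was called in every fit without 1 array, with differences from -1.52 to -1.42. Mcm6 encodes a subunit of the MCM helicase that unwinds DNA at replication. Mcm6 had 6.37, 6.84 and 6.78 in BACE2-KO and 7.54, 7.57 and 7.58 in WT arrays (-0.90, SE 0.15, adjusted p = 0.0416). The other subunits of that helicase did not match it. Mcm2, Mcm3, Mcm4, Mcm5 and Mcm7 differed by -0.07, -0.14, -0.02, -0.29 and -0.20, and none was called. All 20 tested replication genes had a median of -0.07, with 7 higher and 13 lower. The Mcm6 call held in the fits without hIAPP replicate 2 or 3 and in none of the other 10 (adjusted p from 0.0528 to 0.201).

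Tex15, a gene known from meiosis in the testis, rose the most of all called genes. Tex15 had 5.73, 5.23 and 6.36 in BACE2-KO and 3.47, 3.49 and 3.09 in WT arrays (2.42, SE 0.25, adjusted p = 0.00151). The WT values lie near or under the filter level, so that the rise has a direction but no firm size, and it ran from 2.13 to 2.69 in the fits without 1 array, each of which called it. Most genes listed for male meiosis and germ line were too low to test: of 22, 21 had a probe set and 6, Tex15 included, passed the filter. Germ line genes that are not on this list were not counted. Of those 6, 2 were higher and 4 lower. Syce1, of the synaptonemal complex, had 3.36, 2.78 and 3.22 against 4.36, 3.71 and 4.67 in WT arrays (-1.13, SE 0.33, adjusted p = 0.417). Frg1 encodes a nuclear protein named for the region of facioscapulohumeral muscular dystrophy. Frg1 had 8.28, 8.20 and 8.43 in BACE2-KO and 7.85, 7.76 and 7.73 in WT arrays (0.52, SE 0.08, adjusted p = 0.0372), the smallest difference that was called. Zcchc12, a zinc finger coactivator gene of the X chromosome, had 8.68, 8.92 and 8.69 in BACE2-KO and 7.35, 7.92 and 7.87 in WT arrays (1.05, SE 0.16, adjusted p = 0.0244). Frg1 was called without hIAPP or hIAPP/BACE2-KO replicate 1 and in none of the other 10 fits without 1 array (adjusted p from 0.0582 to 0.168). Zcchc12 lost its call without any of the 3 BACE2-KO arrays (adjusted p = 0.0751, 0.119 and 0.0646), without WT replicate 1 (0.87, adjusted p = 0.0708) and without hIAPP replicate 2 (adjusted p = 0.0542).

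The 3 other genes that rose were Tmem35a, which encodes a chaperone of nicotinic acetylcholine receptors, Pdgfrl, whose product resembles the ligand-binding part of a growth factor receptor, and Fam81a. Tmem35a had 4.44, 4.21 and 4.82 in BACE2-KO and 3.63, 3.40 and 3.38 in WT arrays (1.02, SE 0.16, adjusted p = 0.0372), with WT near the filter level. Pdgfrl had 7.35, 7.61 and 7.50 in BACE2-KO and 6.80, 6.64 and 6.70 in WT arrays (0.77, SE 0.11, adjusted p = 0.0152). Fam81a had 5.62, 5.78 and 6.05 in BACE2-KO and 4.65, 4.72 and 5.09 in WT arrays (1.0, SE 0.16, adjusted p = 0.0368). The groups were clear of each other in all 3, with the widest gap in Tmem35a. Tmem35a was called without BACE2-KO replicate 2, hIAPP replicate 1 or hIAPP/BACE2-KO replicate 1 or 2, and in none of the other 8 fits without 1 array (adjusted p from 0.0641 to 0.168). Pdgfrl lost its call without WT replicate 2 (adjusted p = 0.0943) or 3 (adjusted p = 0.0559) and without BACE2-KO replicate 2 (adjusted p = 0.0796) or 3 (adjusted p = 0.0613). Fam81a kept its own without WT replicate 3, hIAPP replicate 1 or hIAPP/BACE2-KO replicate 1, and its adjusted p lay between 0.0519 and 0.201 in the other 9.

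The arrays of hIAPP mice allowed the same genes to be read in other animals. The comparison of hIAPP/BACE2-KO with hIAPP islets shares no array with that of BACE2-KO and WT islets, but a gene's variance was estimated from all 12 arrays together. It called 13 genes (0.101%), and 1073 (8.37%) had an unadjusted p under 0.05. The sign of all 16 genes was repeated, the unadjusted p was under 0.05 for 14, and the groups of 14 did not overlap, as in 11.1% of all genes. Pdgfrl differed by 0.78 there and by 0.77 in BACE2-KO against WT, and Ppp1r3b by 1.63 and 1.59. Ghrl had 3.61, 2.93 and 3.39 in hIAPP/BACE2-KO and 5.23, 4.43 and 5.43 in hIAPP arrays (-1.72, SE 0.37, adjusted p = 0.166). Rbm45 had 6.21, 6.25 and 6.21 in hIAPP/BACE2-KO and 7.39, 6.91 and 6.72 in hIAPP arrays (-0.78, SE 0.15, adjusted p = 0.0922).

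The difference was smaller in hIAPP than in other mice for 11 of the 16, and their median size was 0.78 there. Tmem35a had 3.80, 3.35 and 3.65 in hIAPP/BACE2-KO and 3.32, 3.45 and 3.50 in hIAPP arrays, a difference of 0.18 with overlapping groups. Alox8 had 3.42, 3.76 and 3.22 in hIAPP/BACE2-KO and 3.63, 3.62 and 3.57 in hIAPP arrays, a difference of -0.14, again with overlap. Hyi went the other way, with 4.85, 4.67 and 4.85 in hIAPP/BACE2-KO and 6.11, 6.38 and 6.39 in hIAPP arrays (-1.50, SE 0.14, adjusted p = 0.000757). A test of the difference between both comparisons called none of the 16. It called Sema5a alone (0.0078% of genes), and 308 genes (2.4%) had an unadjusted p under 0.05 in it. Since the 16 were chosen for their differences between BACE2-KO and WT, which enter that test, their unadjusted p-values in it and their smaller sizes in hIAPP mice are no evidence of an effect of the transgene.

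The call threshold passed through a run of genes with similar adjusted p-values, whose differences varied in size and sign. Star, the last inside it, stood at an adjusted p of 0.0462, and Shisal2b, the first outside, at 0.0531. Shisal2b had 8.25, 8.88 and 9.20 in BACE2-KO and 10.23, 9.89 and 10.13 in WT arrays, a difference of -1.31 (SE 0.22), larger in size than those of 9 called genes. Astn1, a gene of neuronal migration, had 4.14, 4.36 and 4.28 in BACE2-KO and 3.55, 3.53 and 3.41 in WT arrays (0.76, SE 0.13, adjusted p = 0.0577). Ncoa7, a nuclear receptor coactivator gene, and Fmnl2, a formin gene of the actin skeleton, differed by -0.49 and -0.58 at that adjusted p. Etv1, an ETS family transcription factor gene, had 10.06, 9.67 and 9.70 against 8.94, 9.19 and 9.15 in WT arrays (0.72, SE 0.13, adjusted p = 0.0716). A further Etv1 probe set differed by 0.81 and the third, at a level near the filter, by 0.07. The next 5 by p were all higher. They were Rem2, a small GTPase gene known to restrain calcium channels (0.73), the Rab GTPase gene Rab39b (0.53), Spx, which encodes the peptide spexin (0.50), Sytl2, a Rab27 effector gene of secretion (0.92), and Ndrg4 (0.50), with adjusted p from 0.0854 to 0.171.

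Several of the widest differences without overlap of groups missed the test. Cldn11, a tight junction gene, had 8.08, 7.15 and 3.99 in BACE2-KO and 3.12, 3.16 and 2.99 in WT arrays, a difference of 3.32 (SE 0.95, adjusted p = 0.415). It stood at 2.48 without BACE2-KO replicate 1 and at 4.53 without replicate 3. Aqp4, a water channel gene, had 3.80, 5.90 and 6.11 in BACE2-KO and 8.0, 7.59 and 7.44 in WT arrays (-2.41, SE 0.51, adjusted p = 0.186). Its other probe sets differed by -1.47 and -0.59, in the same direction. Tmem179 had 7.95, 6.26 and 6.81 in BACE2-KO and 4.77, 4.80 and 5.15 in WT arrays (2.10, SE 0.45, adjusted p = 0.19). Aqp4 and Tmem179 differed by -2.09 and 2.10 in hIAPP/BACE2-KO against hIAPP, without overlap. Rpgrip1, known from photoreceptors, had 5.46, 5.51 and 7.35 in BACE2-KO and 7.96, 8.08 and 8.11 in WT arrays (-1.94, SE 0.46, adjusted p = 0.232), while its 3 dimmer probe sets differed by 0.18 or less in size. The remaining 6 of the 10 widest such differences were Catspere2 (2.02), Iqgap2 (-1.90), Tnfrsf11b (-1.72), Ccnb1ip1 (1.60), Diaph2 (-1.41) and Matn2 (-1.40), with adjusted p from 0.232 to 0.659.

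Diaph2, a formin gene of the X chromosome, took either of 2 levels in the series. It had 6.28, 6.03 and 6.25 in BACE2-KO and 7.65, 7.58 and 7.57 in WT arrays, with no value between. In hIAPP/BACE2-KO arrays it had 6.38, 7.63 and 6.28 and in hIAPP arrays 7.60, 6.14 and 6.35, so that both levels occurred in both of these groups. A fit of the 6 BACE2-KO and WT arrays alone called Diaph2 (adjusted p = 0.00385), and the fit of all arrays did not (adjusted p = 0.336).

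As the labelled mutation might bring linked genes along, the order of genes on chromosomes was read from the RefSeq annotation of assembly GRCm38.p6. Bace2 lies on chromosome 16. Of the 20 tested genes before it and the 8 after it none was called, and 5 had an unadjusted p under 0.05, against 6.28% of all genes. Those were Ripply3 (-0.33), Kcnj6 (-0.47), Sh3bgr (0.67), Pcp4 (1.34) and, after Bace2, Tmprss2 (-0.78). Tmprss2, a membrane serine protease gene, had 6.17, 6.92 and 6.97 in BACE2-KO and 7.31, 7.61 and 7.48 in WT arrays (adjusted p = 0.311), and differed by -0.75 in hIAPP/BACE2-KO against hIAPP. Pcp4 had 9.61, 8.04 and 6.92 against 7.03, 6.75 and 6.78 in WT arrays, so that its difference came mainly from BACE2-KO replicates 1 and 2. A further probe set of Sh3bgr had the opposite sign (-0.19, SE 0.16). Timmdc1 is on the same chromosome, outside these neighbours.

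Chromosome 8 held 5 of the 16 called genes, out of 686 genes tested there, where 0.125% of all genes were called. All 5 were higher: Star, Tex15, Ppp1r3b, Pdgfrl and Frg1. The span from Star to Frg1, which these genes themselves set, holds 59 tested genes. In it, 12 had an unadjusted p under 0.05, 9 of them higher and 3 lower. In hIAPP/BACE2-KO against hIAPP 16 of the 59 had one, against 8.37% of all genes. Over the whole chromosome the share in BACE2-KO against WT was 6.56% of 686 genes, near the 6.28% of all genes. Besides the called genes, Dusp4, a phosphatase gene that limits MAP kinases, had 7.74, 8.31 and 8.05 in BACE2-KO and 6.56, 7.48 and 7.51 in WT arrays (0.85, SE 0.24, adjusted p = 0.405). Micu3, a regulator gene of mitochondrial calcium uptake, had 7.86, 7.95 and 7.60 against 8.22, 8.35 and 8.19 in WT arrays (-0.45, SE 0.10, adjusted p = 0.196). Eif4ebp1 (0.40), Eri1 (0.38), Gsr (0.18), Pcm1 (-0.36) and Zdhhc2 (-0.29) were the others. Their signs were the same in hIAPP/BACE2-KO against hIAPP, with Dusp4 at 0.62, Micu3 at -0.38 and Pcm1 at -0.36. A further Pcm1 probe set differed by 0.20 (SE 0.15) in BACE2-KO against WT, with the opposite sign, and its remaining ones by -0.48, 0.10 and 0.02. In that comparison the other probe set of Eif4ebp1 differed by 0.18, that of Eri1 by -0.13 and that of Gsr by 0.01. The other Zdhhc2 probe sets differed by -0.07, -0.06 and 0.03. The median over the span was 0.10, against a median of 0.01 and an upper quartile of 0.10 over all genes tested. The groups did not overlap for 12 higher and 3 lower genes of the span, against 6.59% and 6.34% of all genes.

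**Figure D3:**
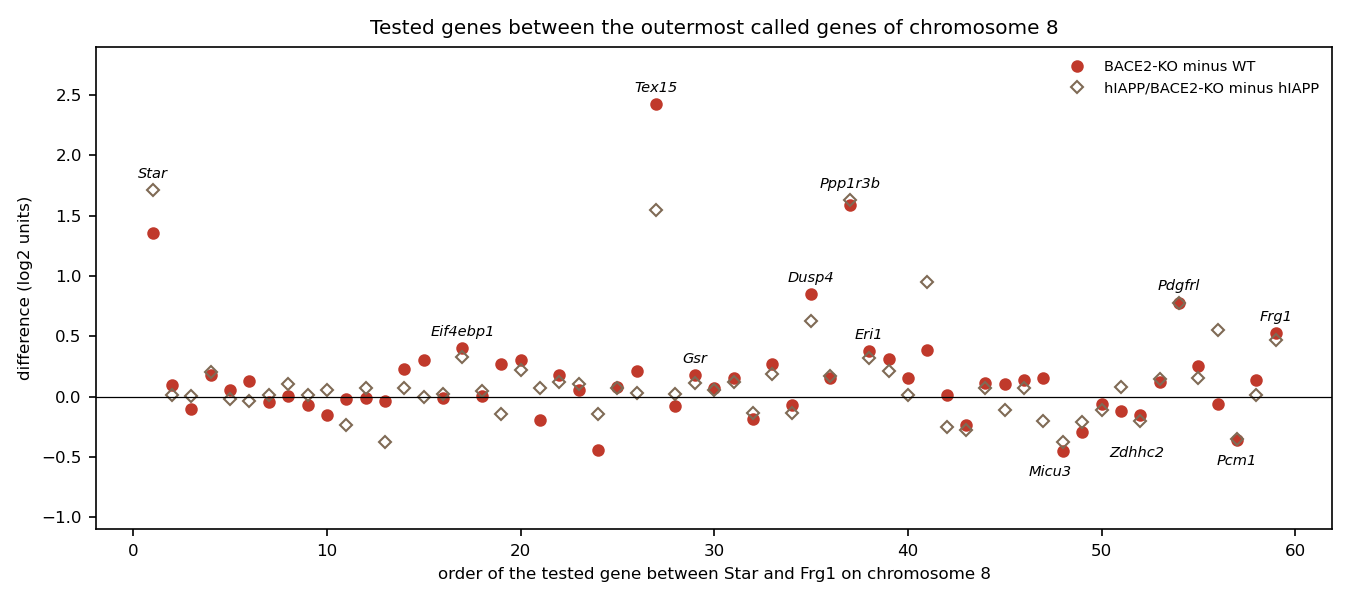
Difference in log2 units (vertical axis) of the 59 tested genes from Star to Frg1 on chromosome 8, by their order (horizontal axis), for BACE2-KO minus WT (filled circles) and hIAPP/BACE2-KO minus hIAPP (open diamonds). Star, Tex15, Ppp1r3b, Dusp4, Pdgfrl and Frg1 stand above the genes next to them in both comparisons. In hIAPP/BACE2-KO minus hIAPP, Prag1 at 0.95 and Fgl1 at 0.55 stand high as well.

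Stress genes of the PERK and ATF4 arm stood mostly higher in BACE2-KO islets, none of them past the test. PERK is a kinase of the endoplasmic reticulum that slows translation under stress and lets the transcription factor ATF4 build up. ATF4 then drives genes of amino acid uptake and synthesis, and CHOP (Ddit3) with its partners. Of 30 listed genes, 29 were tested, and 28 were higher and 1 lower, with a median of 0.31 against 0.01 over all genes. Of these, 15 higher members and 0 lower ones had an unadjusted p under 0.05, against 3.2% and 3.08% of all genes. The groups did not overlap for 9 members, all higher, and for 0 lower ones, against 6.59% and 6.34% of all genes. The list was chosen with earlier results of these arrays known, so its count is a description.

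Amino acid genes of the list came out as follows. Slc7a3, a transporter gene of cationic amino acids, had 6.53, 7.65 and 6.96 in BACE2-KO and 5.76, 6.07 and 5.91 in WT arrays (1.13, SE 0.24, adjusted p = 0.171). Cth, an enzyme gene of cysteine synthesis, had 4.99, 6.15 and 5.34 in BACE2-KO and 4.73, 4.56 and 4.25 in WT arrays (0.98, SE 0.27, adjusted p = 0.365). Both were clear of the WT range. Psat1, of serine synthesis, had 8.93, 8.95 and 8.96 in BACE2-KO and 7.26, 8.30 and 8.73 in WT arrays (0.85, SE 0.27, adjusted p = 0.543), where WT replicate 1 stood far below. Shmt2 and Psph, further genes of serine and glycine metabolism, differed by 0.63 and 0.70.

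Among the regulators, Ddit3 had 9.07, 9.18 and 9.27 in BACE2-KO and 8.50, 8.49 and 9.07 in WT arrays (0.49, SE 0.16, adjusted p = 0.536). Trib3, a pseudokinase gene induced by CHOP, had 8.08, 8.09 and 8.68 against 6.62, 7.23 and 8.08 in WT arrays (0.97, SE 0.32, adjusted p = 0.564). In both, WT replicate 3 reached the BACE2-KO range. Chac1, whose product breaks down glutathione, had 10.34, 10.31 and 10.69 in BACE2-KO and 9.35, 9.95 and 10.10 in WT arrays (0.65, SE 0.20, adjusted p = 0.513). Atf4 itself differed by 0.30 and the PERK gene Eif2ak3 by 0.03, and Atf3, the member that was lower, by -0.09.

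The mean level of the list was 8.57, 8.80 and 8.82 in BACE2-KO and 8.07, 8.39 and 8.50 in WT arrays and the groups did not overlap. Replicate 1 was the lowest array of both groups. The median difference was 0.20 without WT replicate 1 and 0.43 without WT replicate 3. Acinar markers moved against the list within each group, with means of 10.64, 9.93 and 9.31 in BACE2-KO and 10.67, 10.09 and 8.38 in WT arrays. With the acinar mean as a covariate the median of the list was 0.36. In hIAPP/BACE2-KO against hIAPP the list had a median of 0.21, with means of 8.51, 8.82 and 8.79 against 8.23, 8.44 and 8.48.

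**Figure D4:**
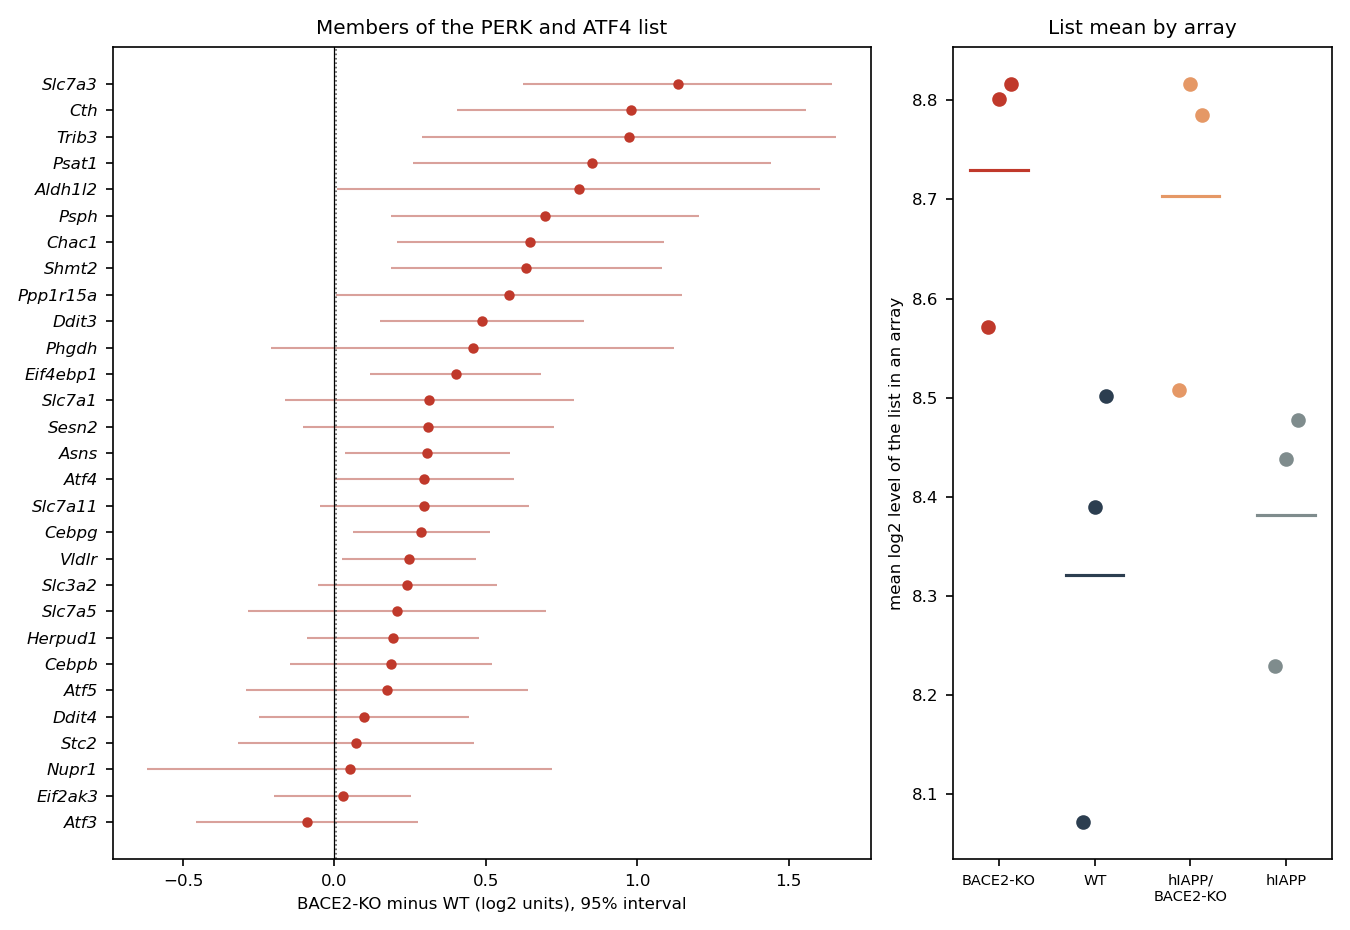
Left, difference between BACE2-KO and WT islets in log2 units with its 95% interval for each of the 29 tested genes of the PERK and ATF4 list, with a dotted line at the median of all genes. Right, mean log2 level of the list in each array (points) and group (line), where the 3 BACE2-KO arrays, from 8.57 to 8.82, lie above the 3 WT arrays, from 8.07 to 8.50.

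ATF4 binds the amino acid response element, and its core was searched as TGATGNAA on both strands in RefSeq promoters of GRCm38.p6, from 250 bases before a gene's start to 50 bases after it. Of the 29 tested list members 24 had a promoter there, and 8 of these (33.3%) held the core, against 2.84% of 10334 tested genes with a promoter and 3.97% of all promoters. Since several members are known as ATF4 targets, this describes the list and not the arrays. Of the 15 members with an unadjusted p under 0.05, 11 had a promoter and 4 held the core. Their windows are shown with the core in capitals, which in Chac1, Trib3 and Vldlr reads on the opposite strand. They are Chac1 at chr2:119350999-119351106 on the plus strand, Trib3 at chr2:152344031-152344096 on the minus strand, Asns at chr6:7693180-7693282 on the minus strand and Vldlr at chr19:27216770-27216877 on the plus strand.
Chac1: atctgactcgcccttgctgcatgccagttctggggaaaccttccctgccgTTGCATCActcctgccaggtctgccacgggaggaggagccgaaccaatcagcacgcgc
Trib3: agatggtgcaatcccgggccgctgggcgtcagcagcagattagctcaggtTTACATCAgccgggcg
Asns: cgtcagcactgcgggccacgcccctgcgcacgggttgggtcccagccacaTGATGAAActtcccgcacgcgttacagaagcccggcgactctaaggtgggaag
Vldlr: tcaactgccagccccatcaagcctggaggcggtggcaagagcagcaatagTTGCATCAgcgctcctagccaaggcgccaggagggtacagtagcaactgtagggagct
Asns, the asparagine synthetase gene, differed by 0.31 and Vldlr, a lipoprotein receptor gene, by 0.25, while Chac1 and Trib3 differed by 0.65 and 0.97. The other 4 genes with the core, Slc7a11, Herpud1, Atf3 and Nupr1, differed by 0.30, 0.19, -0.09 and 0.05, so members with the core covered most of the range of the list.

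Other stress lists moved less. The ATF6 and IRE1 arms of the same response, which raise chaperones and degradation factors of the endoplasmic reticulum, had a median of 0.03 over 27 tested genes, with 20 higher and 7 lower. Of the 19 tested antioxidant targets of NRF2, 17 were higher and 2 lower, with a median of 0.15 and 4 higher members with an unadjusted p under 0.05, against 3.2% of all genes. Its median was 0.04 in hIAPP/BACE2-KO against hIAPP. Srxn1, the sulfiredoxin gene, had 9.14, 9.11 and 8.83 in BACE2-KO and 8.59, 8.65 and 8.81 in WT arrays (0.34, SE 0.10, adjusted p = 0.417). Nqo1, a quinone reductase gene, had 5.98, 6.05 and 6.14 against 5.33, 5.55 and 5.71 in WT arrays (0.53, SE 0.18, adjusted p = 0.626). The core of the antioxidant response element, TGACNNNGC, was in 40% of the 15 list promoters and in 16.6% of promoters of tested genes. As the list is made of NRF2 targets, this describes the list and not the arrays. Of the higher members with an unadjusted p under 0.05, 2 had a promoter and 1 held the core. Among 19 tested p53 and apoptosis genes, 12 were higher and 7 lower, and Cdkn1a, the cell cycle inhibitor p21, had 8.59, 8.69 and 8.98 against 7.93, 8.17 and 8.39 in WT arrays (0.59, SE 0.17, adjusted p = 0.415). Heat shock proteins had a median of 0.10, with 12 of 13 higher.

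Immune lists lay on the lower side, again with no member called. Of 24 tested interferon-stimulated genes 5 were higher and 19 lower, with a median of -0.19. Oas2, which senses double-stranded RNA, had 5.43, 4.46 and 5.41 in BACE2-KO and 5.77, 6.08 and 6.43 in WT arrays (-0.99, SE 0.26, adjusted p = 0.339). Xaf1 had 7.13, 6.13 and 7.47 against 7.47, 7.86 and 8.54 in WT arrays (-1.05, SE 0.41, adjusted p = 0.705). Its other probe set had the opposite sign, with 8.75, 7.77 and 9.32 in BACE2-KO and 7.54, 7.65 and 8.60 in WT arrays (0.68, SE 0.92), so Xaf1 has no settled direction. On the probe sets tested, BACE2-KO replicate 2 was the lowest in both, and the list median was 0.00 without it and -0.36 without replicate 3. Inflammatory and NF-kB genes had a median of -0.22, with 4 of 25 higher, and Il1r1, the receptor gene of interleukin 1, had 10.91, 10.35 and 10.70 against 11.14, 11.08 and 11.18 in WT arrays (-0.48, SE 0.14, adjusted p = 0.405). All 9 tested MHC class I and 5 MHC class II genes were lower, with medians of -0.19 and -0.22 and no unadjusted p under 0.05. Single arrays weighed on these medians. The inflammatory median was -0.11 without WT replicate 2, -0.12 without BACE2-KO replicate 3 and -0.38 without WT replicate 3. That of MHC class II was -0.09 without BACE2-KO replicate 1 and -0.37 without replicate 2, and that of MHC class I was -0.11 without BACE2-KO replicate 2. In hIAPP/BACE2-KO against hIAPP the interferon-stimulated list had a median of 0.19 with 20 of 24 higher, the inflammatory list 0.07 with 16 of 25 higher, and the MHC class I and II lists -0.09 and 0.06, so the lower side was not repeated for 3 of these 4 lists.

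Of the cell type lists, the group means were clear of each other in that of pancreatic polypeptide and epsilon cells, which holds Ghrl, and overlapped in the others described here. Beta cell identity genes had a median of -0.06 over 16 tested, with list means from 10.41 to 10.51 in BACE2-KO and from 10.45 to 10.56 in WT arrays. Isl1, a homeodomain factor of islet cells, had 10.26, 10.80 and 10.89 in BACE2-KO and 11.08, 11.12 and 10.91 in WT arrays (-0.39, SE 0.14, adjusted p = 0.702), and Pdx1, the master factor of beta cells, differed by -0.17. Alpha cell markers had a median of 0.20, with 9 of 13 higher, and 0.06 without BACE2-KO replicate 3. Ttr, the transthyretin gene that is high in alpha cells, had 12.56, 12.67 and 12.72 against 12.35, 12.32 and 12.36 in WT arrays (0.31, SE 0.09, adjusted p = 0.385). Irx2, a transcription factor gene of alpha cells, differed by 0.58 (SE 0.22, adjusted p = 0.702), and Gcg by 0.06. Delta cell markers had a median of -0.03.

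Among other cells, acinar markers had a median of 0.14 with 19 of 21 higher, which was -0.57 without WT replicate 3 and 0.68 without WT replicate 1, so the direction rests on single WT arrays. Prss1, a trypsinogen gene, had 12.24, 7.15 and 11.36 in BACE2-KO and 9.77, 7.08 and 5.49 in WT arrays (2.80, SE 1.18, adjusted p = 0.754). The acinar mean as a covariate left 11 of the 16 called genes called. Endothelial markers were lower in 14 of 17, with a median of -0.16, and list means were 6.56, 6.14 and 6.66 in BACE2-KO and 6.51, 6.62 and 6.71 in WT arrays. Without BACE2-KO replicate 2, the lowest, that median was -0.02, and in hIAPP/BACE2-KO against hIAPP it was 0.03. Vwf, the von Willebrand factor gene, differed by -0.46 and Flt1, a receptor gene of VEGF, by -0.36, while Pecam1 and Cdh5, which define the type, differed by 0.07 and 0.01. Macrophage, stellate cell and duct cell lists had medians of 0.00, -0.07 and 0.03.

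**Figure D5:**
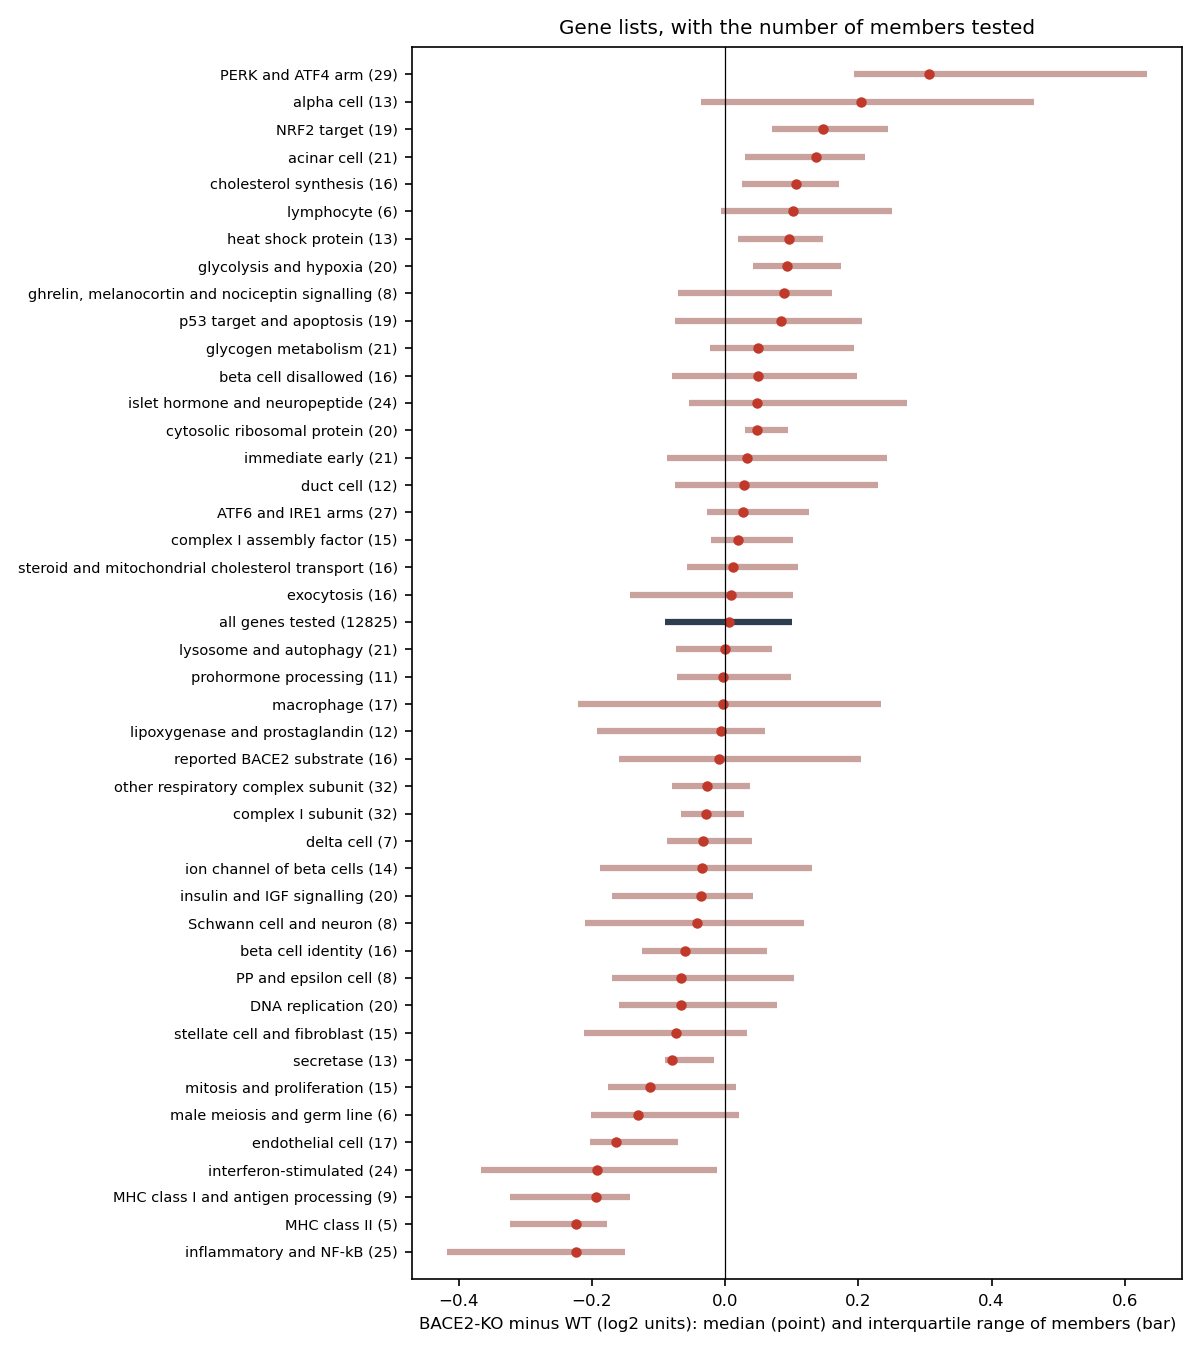
Median difference between BACE2-KO and WT islets (points, log2 units) with the interquartile range of the members (bars) for 43 gene lists and for all 12825 genes tested (dark bar), with the number of members tested in parentheses. The PERK and ATF4 list lies farthest to the right at 0.31, and the inflammatory and MHC class II lists farthest to the left at -0.22.

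Genes close to the function of BACE2 changed little. The 13 tested genes of secretases and their amyloid precursors, Bace2 included, had a median of -0.08, with 2 higher and 11 lower, and Psen2 and Ncstn, of the gamma-secretase complex, differed by -0.21 and -0.14. Of 16 tested genes whose proteins are reported BACE2 substrates, 8 were higher and 8 lower, with a median of -0.01. Fgfr1, a fibroblast growth factor receptor gene, had 6.47, 6.16 and 6.48 in BACE2-KO and 6.0, 6.06 and 6.0 in WT arrays (0.35, SE 0.14, adjusted p = 0.72). Scn2b, a sodium channel subunit gene, had 4.90, 4.43 and 4.57 against 4.22, 4.11 and 4.41 in WT arrays (0.39, SE 0.15, adjusted p = 0.72). The other Scn2b probe sets differed by 0.01 (SE 0.15) and 0.15 (SE 0.18), with overlapping groups. Sez6l had the opposite sign, with 8.89, 7.99 and 8.20 against 8.95, 8.86 and 8.64 in WT arrays (-0.46, SE 0.18, adjusted p = 0.731), and its groups overlapped.

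Genes of stimulus and secretion had no call. The 16 tested exocytosis genes had a median of 0.01, and Rab27a, the granule GTPase gene, had 9.24, 9.33 and 9.30 in BACE2-KO and 9.45, 9.98 and 9.58 in WT arrays (-0.38, SE 0.11, adjusted p = 0.447). Of 14 tested ion channel genes, Cacna1a, of a calcium channel, differed by -0.41 and Scn3a, of a sodium channel, by -0.50, while Trpm5, of a cation channel, differed by 0.55. Their groups did not overlap, and their adjusted p-values lay between 0.401 and 0.654. Among 16 genes that beta cells normally keep silent, Igfbp4, a binding protein gene of insulin-like growth factors, had 7.53, 7.27 and 7.42 in BACE2-KO and 6.35, 6.91 and 5.76 in WT arrays (1.07, SE 0.22, adjusted p = 0.171). Aass, of lysine breakdown, had 3.65, 3.61 and 3.67 against 4.42, 4.36 and 4.85 in WT arrays (-0.90, SE 0.21, adjusted p = 0.232). Prohormone processing genes had a median of 0.00, and insulin and IGF signalling genes of -0.04.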

How the data were processed

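The files hold log2 expression levels per probe set, deposited by the authors after RMA, a background correction, quantile normalization and probe summary, run in affy, per the submitters' processing notes (versions not given in the sources used here). RNA was labelled as biotinylated cRNA, per the labels' protocols. All per-sample columns were used. Arrays carry no read depth, so their number limits the precision.

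A gene was its one-symbol probe set with the highest mean over 12 arrays. Of 45141 probe sets, 28898 had 1 symbol, 551 several and 15692 none. The 25th percentile of gene means (3.43) was the lower limit for testing. A linear model with 4 group means was fitted to all arrays with limma 3.58.1 in R 4.3.3, with moderated variances that follow a trend in mean level, two-sided, and adjusted by Benjamini-Hochberg over 12825 genes at a threshold of 0.05. It was tested on simulated data. SD and SE are over 3 arrays a group, with the spread pooled over all groups in the fit. Values and figures were tabulated with Python 3.11.15, pandas 2.3.3 and matplotlib 3.10.9.

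Genes were named by a rule: Bace2 and the islet hormones; all called genes; the 10 smallest p-values and the 10 widest non-overlapping differences not called; up to 4 members of each list by p; genes beside Bace2 or between called genes of 1 chromosome with an unadjusted p under 0.05; and members of lists with a call. Diaph2 in the 6-array fit, Tmem87a, Slc28a2 and Sema5a were singled out after their values were seen. The genes, the 43 lists and the tests were chosen with earlier results of these data known, so lists carry no test. Alternatives were the filter, the probe set rule, normalization, centring, variance model, array weights, an acinar covariate, a replicate block, the arrays in the fit, the threshold and each array left out.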

Additional observations from a re-analysis of the deposited data

Results flagged for a closer look

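Sema5a encodes a semaphorin of axon guidance. Its difference between islets without and with BACE2 was not the same in mice without and with the hIAPP transgene. Sema5a had 3.62, 3.69 and 4.79 in BACE2-KO and 3.50, 3.62 and 3.43 in WT arrays, and 3.70, 3.55 and 3.55 in hIAPP/BACE2-KO and 8.61, 8.49 and 7.47 in hIAPP arrays. The difference was 0.52 (SE 0.32, adjusted p = 0.916) in BACE2-KO minus WT and -4.59 in hIAPP/BACE2-KO minus hIAPP. The difference of these 2 was 5.11 (SE 0.45), with an adjusted p of 0.000723 by limma. The 3 hIAPP arrays stood apart from the other 9, of which BACE2-KO replicate 3 was the highest.

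Vwf, the von Willebrand factor gene of endothelial cells, had opposite signs in both comparisons. It had 4.48, 3.91 and 4.58 in BACE2-KO and 4.61, 5.13 and 4.62 in WT arrays, and 4.92, 5.28 and 4.99 in hIAPP/BACE2-KO and 4.71, 4.39 and 4.46 in hIAPP arrays. The differences were -0.46 and 0.54, and the first minus the second was -1.01, with an unadjusted p of 0.00399 by limma, which did not pass adjustment over all genes. The groups did not overlap in either comparison, as was the case, in opposite directions, for 23 of the 12825 genes tested. Groups did not overlap for 12.9% of genes in BACE2-KO against WT and for 11.1% in hIAPP/BACE2-KO against hIAPP.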

How the results depend on the processing

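Alternatives changed how many genes were called in BACE2-KO minus WT (16) far more than the direction of single genes, and no called value changed sign. The count was 6 with genes under the 50th percentile left out, 36 with array weights and 9 with the 6 BACE2-KO and WT arrays alone, of which 4 were among the 16, and it ran from 5 to 16 with 1 array left out: 5, 6 and 9 without BACE2-KO replicate 1, 2 and 3, 7 and 8 without WT replicate 1 and 2, 9 without hIAPP replicate 2, 10 without hIAPP/BACE2-KO replicate 3, and 11 or more without any other. The 4 genes called in every fit that tested them were Pnoc, Rbm45, Tex15 and Timmdc1, but Pnoc and Tex15 lie under the 50th percentile and were not tested with that filter. For hIAPP/BACE2-KO minus hIAPP (13) the count was 24 with arrays centred on their median, 3 with its 6 arrays alone, 27 at an adjusted p under 0.10, and from 4 to 17 with 1 array left out. For the test between both comparisons (1) it was 0 with the stricter filter, and 2 with median centring, with a robust variance trend or at an adjusted p under 0.10, and from 1 to 2 with 1 array left out. Over single genes and lists, 1638 alternative values counted as the same. For a gene that meant the same sign and side of the threshold, for a list a median shifted by less than the spread between arrays. A list median so counted could change sign. That of acinar markers was 0.14 in the main fit and -0.57 without WT replicate 3. Of the gene values, 113 fell short of the threshold and 31 passed it, and 15 list medians shifted by more than that spread. With the replicate number as a block, 22 genes were called in BACE2-KO minus WT, of which 14 were among the 16, and 29 in hIAPP/BACE2-KO minus hIAPP. Deviations of same-numbered BACE2-KO and WT arrays correlated by 0.22, 0.02 and 0.16, and those of differently numbered ones by -0.24 to 0.08. The main fit did not pair samples by number, and whether the numbers mark pairs or batches was not tested. The causes of these changes were not tested. Genes with a group near the filter level, such as Ghrl, Tex15, Mrap2 and Alox8, have a direction but no resolved size.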

Other observations

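Some groups of genes outside the comparison's main lists had small differences of mostly the same sign. Of 16 tested genes of cholesterol synthesis 14 were higher in BACE2-KO than in WT islets, with a median of 0.11, which was -0.08 without WT replicate 1. Hsd17b7, of sterol synthesis, had 6.92, 6.55 and 6.81 in BACE2-KO and 6.27, 6.24 and 6.39 in WT arrays (0.46, SE 0.13, adjusted p = 0.402), and Mvk, of the mevalonate pathway, had the opposite sign at -0.51. The other Hsd17b7 probe sets differed by 0.09 and 0.11, and the other Mvk probe set by 0.06, so Mvk has no settled direction. Of 15 tested genes of mitosis and proliferation 11 were lower, with a median of -0.11. Top2a, a topoisomerase gene of dividing cells, had 3.35, 3.59 and 3.18 against 3.85, 4.06 and 3.44 in WT arrays (-0.41, SE 0.19, adjusted p = 0.79). These Top2a values lie near the filter level, and its other probe sets differed by 0.05 and -0.09. Cytosolic ribosomal protein genes were higher in 19 of 20, by a median of 0.05, where 52.6% of all genes were higher. In hIAPP/BACE2-KO against hIAPP, 12 of these 20 were higher, with a median of 0.01. Of the mitosis and proliferation genes 7 of 15 were higher there, with a median of -0.01. Cholesterol synthesis genes were higher in 12 of 16 there, with a median of 0.06. Elavl4, a neuronal RNA-binding protein gene, had 8.03, 7.84 and 7.83 in BACE2-KO and 8.42, 8.35 and 8.21 in WT arrays (-0.43, SE 0.10, adjusted p = 0.232).

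A pair of further genes called in the fit of the 6 BACE2-KO and WT arrays alone varied widely among hIAPP arrays. Tmem87a had 8.38, 8.38 and 8.34 in BACE2-KO and 7.71, 7.49 and 7.54 in WT arrays, and 8.74, 8.4 and 8.32 in hIAPP/BACE2-KO and 7.83, 6.66 and 5.84 in hIAPP arrays. Slc28a2, a nucleoside transporter gene, had 3.14, 2.95 and 2.94 in BACE2-KO and 4.36, 4.34 and 3.96 in WT arrays, and from 3.0 to 5.54 in hIAPP arrays.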
